A study of Mus musculus with 18 samples.

Results

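The genes described here are 52 protein-coding neighbours of Brca1 on mouse chromosome 11, named one by one and measured in the postnatal mouse brain with and without a conditional knockout of Brca1. By the gene order of the RefSeq annotation of GRCm38.p6, 26 of them lie before Brca1 and 26 after it, from Dnajc7, whose lower coordinate is 0.906 Mb below that of Brca1, to Map3k14, 1.731 Mb above it. They are 52 of the 102 protein-coding genes between these outermost members. A probe set, the group of short oligonucleotides that an Affymetrix array reads as 1 signal, was taken as a member where the array annotation gives it exactly 1 of the 52 genes. The comparison asks whether genes close to the targeted locus differed between knockout and wild-type brains more often than genes elsewhere.

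The animals were conditional knockouts and wild types at postnatal day 7. The knockouts had 2 altered copies of Brca1. In the floxed copy, exons 5 to 13 can be cut out by Cre, and the null copy is disrupted by a neo cassette inserted in reverse near exon 11. Cre was under nestin control, which is active in neural progenitors and reaches their descendants. Blood-derived, meningeal and most vascular cells lie outside that lineage, so such cells of a knockout brain need not have lost the floxed allele. The strains, and whether the wild types carried Cre or a floxed allele, are not given in the sources used here. Cortical RNA was read on an A chip and on a B chip, and RNA labelled rest, from P7 brain, on a larger array, each with 3 knockout and 3 wild-type arrays, 18 in all. What tissue the word rest covers is not stated.

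Brca1 codes for a protein that repairs broken DNA by homologous recombination and protects dividing progenitors. Genes that lie next to a targeted locus are inherited with it, so a knockout can carry a chromosome segment from the strain in which the locus was altered, together with any sequence variants of its neighbours. Short array probes can bind transcript variants unequally, and a neighbour of a targeted gene can also be read differently because a cassette or deletion lies close to it. The neighbourhood of Brca1 is rich in genes with roles in autophagy and lysosomes, in Stat signalling, in chromatin and in the neuronal membrane.

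The promoters of 3 genes of this neighbourhood bear on the values below: Brca1, whose promoter is shared with the nearest gene, and Cavin1 and Grn, the genes of the member probe sets called in cortex. Each line gives the 250 bases before the transcription start, from RefSeq on GRCm38.p6, read 5′ to 3′ on the gene's strand, at chr11:101551956-101552205 for Brca1 (minus strand), chr11:100970618-100970867 for Cavin1 (minus strand, 1 of its 2 listed starts) and chr11:102430257-102430506 for Grn (plus strand). Capitals mark CCAAT, the box bound by the factor NF-Y, and TGACGT, the core of the cAMP response element.
Brca1: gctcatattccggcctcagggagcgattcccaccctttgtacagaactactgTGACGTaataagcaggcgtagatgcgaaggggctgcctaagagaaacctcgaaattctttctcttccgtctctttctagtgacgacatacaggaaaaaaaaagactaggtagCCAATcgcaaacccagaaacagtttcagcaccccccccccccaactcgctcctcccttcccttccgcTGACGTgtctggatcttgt
Cavin1: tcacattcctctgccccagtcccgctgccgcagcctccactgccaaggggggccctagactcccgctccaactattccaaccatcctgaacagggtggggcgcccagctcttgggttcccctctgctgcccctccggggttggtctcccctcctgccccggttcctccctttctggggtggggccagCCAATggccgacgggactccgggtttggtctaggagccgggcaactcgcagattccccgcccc
Grn: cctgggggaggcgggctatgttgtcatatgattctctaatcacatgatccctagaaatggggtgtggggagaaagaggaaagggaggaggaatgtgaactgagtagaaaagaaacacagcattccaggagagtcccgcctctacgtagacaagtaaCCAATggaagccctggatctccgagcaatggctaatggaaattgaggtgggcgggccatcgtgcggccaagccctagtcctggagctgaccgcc

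The Brca1 stretch and the 250 bases before 1 of the 2 listed starts of Nbr1, which runs the opposite way, overlap by 151 bases, so the control sequence of the targeted gene is in part that of its neighbour. RefSeq promoters were at hand for 37 of the 52 genes, with 48 starts. On either strand, CCAAT was present before 20 of these 48 starts (41.7%), against 33.8% of all 32851 promoters. TGACGT was present before 3 of them (6.2%, against 6.5% of all). The Stat site TTCNNNGAA was found before 3 (6.2%, against 7% of all), the interferon response core GAAANNGAA before 2 (4.2%, against 7.1%) and the E-box CACGTG, known from lysosomal genes, before 4 (8.3%, against 6%). The searched motifs do not contain one another, and in the printed stretches only CCAAT and TGACGT matched. These matches are descriptions of the sequence and not sites of binding.

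Signals were present for 54% to 58% of probe sets per A chip array, 33.6% to 42.6% per B chip array and 49.2% to 51.6% per rest array, and the remaining cells are blank. The ratio of 3′ to 5′ actin control signals, a measure of RNA integrity, lay between 1.37 and 1.51 on the A chip, between 1.86 and 2.4 on the B chip and between 1.64 and 1.96 in rest. Probe sets of Y-linked genes were listed on knockout replicates 1 and 2 of all 3 tables, at 2 to 7 probe sets each, and on none of the other arrays except 1 probe set on wild-type replicate 2 of the rest table, so the sexes of the animals and their genotypes were partly joined. Markers of cortical excitatory neurons were present on the cortex A chip, with summed signals of 874 to 936 in knockout and 789 to 934 in wild type. These sums were read from Tbr1, Neurod6 and Neurod2. In the rest table Emx1, a transcription factor of that lineage, was blank on all arrays, but Neurod2 was listed on every array, at 221 to 719. The summed signals of the list there were 221 to 767 in knockout and 533 to 756 in wild type. The labels do not say whether replicates are separate animals on every chip, and p-values then measure the spread between these arrays.

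Brca1 itself did not separate the genotypes. Its probe set 1424629_at read 51.4, 44 and 61.4 in the 3 knockout cortices, against 38, 36.9 and 48.9 in the 3 wild-type cortices, with groups that overlap (log2 difference 0.25, SE 0.16, limma adjusted p = 0.496). In rest it read 118, 86 and 135 in knockout, against 102, 112 and 114 in wild type (log2 difference 0.03, adjusted p = 0.978). The other 3 Brca1 probe sets were blank on all cortex arrays and listed on at most 2 rest arrays. The files do not say which exons a probe set reads, so this gene does not check the genotype labels.

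Of the 91 member probe sets of the cortex A chip, which stand for 50 of the 52 genes (Plcd3 and Acbd4 have none), 67 probe sets of 42 genes were listed on at least 2 arrays of each genotype and could be tested. On the B chip 11 of 22 member probe sets could be tested, for 10 genes, and in rest 84 of 111, for 49 genes. Aoc3, Nags and Vps25 were tested in no table. Calls were made at an adjusted p under 0.05 in limma, a linear model with a spread pooled across probe sets, fitted to all tested probe sets of a table. Signals were scaled to a common level and compared as log2(signal + 16), so a log2 difference of dim probe sets is understated.

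In cortex on the A chip 3 of the 67 tested member probe sets were called, all higher in knockout, 1 of Cavin1 and 2 of Grn. This is 4.48%, against 3.02% of all 12065 tested probe sets (364). At an unadjusted p under 0.05 there were 12 member probe sets (17.9%), 9 higher and 3 lower in knockout, against 15.7% of all. The genotypes did not overlap for 15 member probe sets (22.4%), 9 above and 6 below wild type, against 22.5% of all. By each of these counts the members' share lay near the background of the array.

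On the B chip none of the 11 tested member probe sets was called by limma, against 0.281% of all 7838. An unadjusted p under 0.05 was reached by 1 of them (9.09%, against 7.39% of all), and it was also the only 1 whose genotypes did not overlap (against 15.9% of all). In rest none of 84 was called, against 0.313% of all 21407. There, 14 reached an unadjusted p under 0.05 (16.7%, against 10.5% of all), 8 higher and 6 lower in knockout, and 18 had genotypes that did not overlap (21.4%, against 17.6% of all), 10 above and 8 below.

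The differences were small in most of the neighbourhood, as they were over all tested probe sets. On the A chip 53 of the 67 log2 differences lay within 0.25 of 0, on the B chip 9 of 11 and in rest 66 of 84. Over all tested probe sets these counts were 9637 of 12065, 5812 of 7838 and 17389 of 21407. The median log2 difference of the members was 0.025 on the A chip, against -0.0091 for all tested probe sets. It was 0.12 on the B chip, against 0.00027 for all, and 0.019 in rest, against 0.00095.

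**Figure D1:**
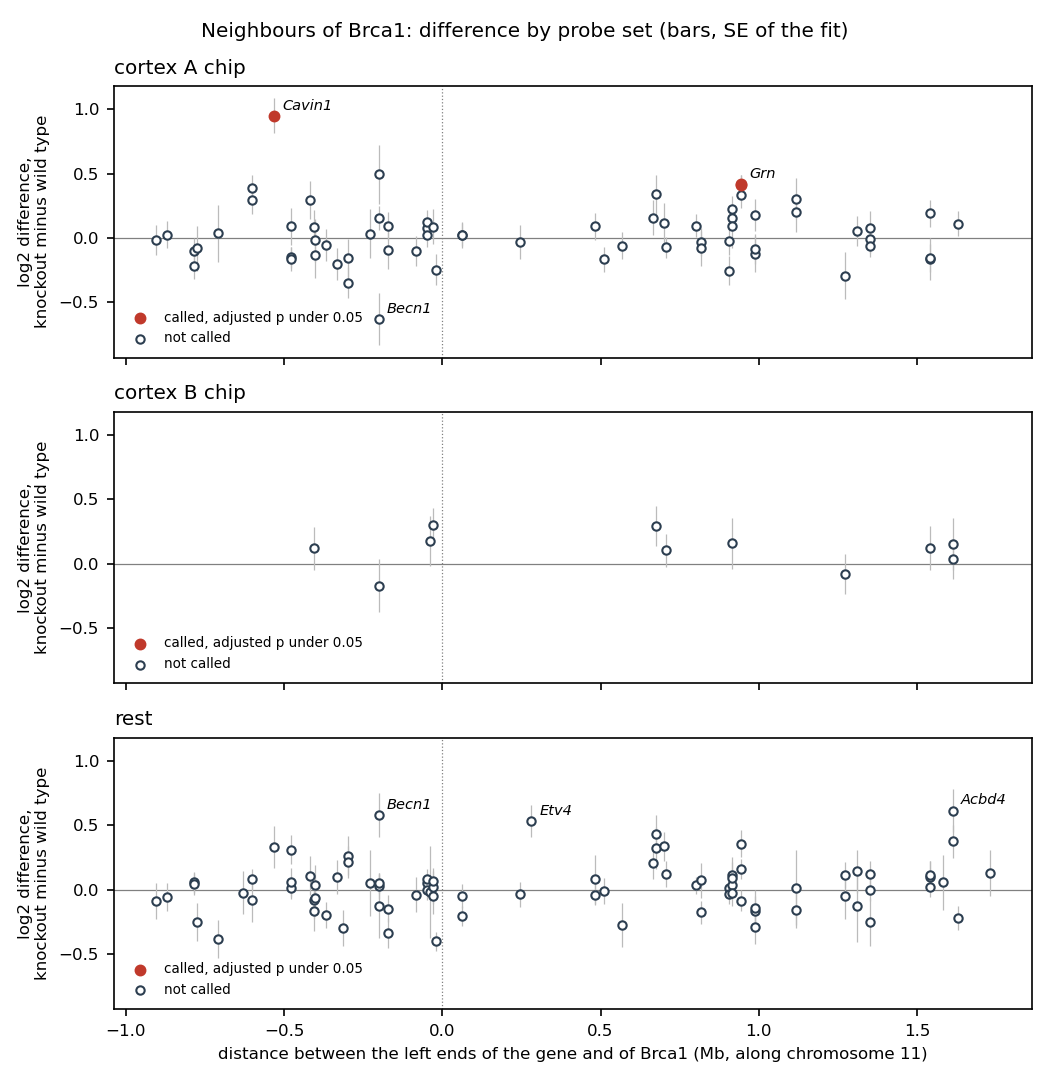
Log2 difference, knockout minus wild type, of each tested member probe set (vertical axis, bars are the SE of the fit) by the distance between the left ends of its gene and of Brca1 in Mb (horizontal axis), in 3 tables. Filled points are called at an adjusted p under 0.05: Cavin1 and 2 of Grn on the cortex A chip and none elsewhere, with both signs found on either side of Brca1.

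The nearest genes are Nbr1 and, on the other side, Rnd2, Vat1 and Ifi35. Nbr1, a receptor that brings ubiquitin-tagged cargo to autophagosomes, read 535, 576 and 475 with 1448343_a_at in knockout cortex, against 525, 517 and 513 in wild-type cortex. The knockout values surround the wild-type ones (log2 difference 0.02, SE 0.09, adjusted p = 0.93). In rest the same probe set read 972, 922 and 1002 in knockout, against 1158, 1021 and 1170 in wild type. All 3 knockout values lay below all wild-type values there, but the difference was not called (log2 difference -0.20, SE 0.08, adjusted p = 0.399). The other Nbr1 probe set, 1451897_a_at, had log2 differences of 0.03 in cortex and -0.05 in rest, with overlapping groups in both.

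Rnd2, a small GTPase that takes part in the migration of young cortical neurons, came closest to a call in rest. Its probe set 1422670_at read 1633, 1633 and 1683 in knockout rest, against 2076, 2083 and 2404 in wild-type rest. The groups stand well apart, yet the adjusted p was 0.0613 (log2 difference -0.40, SE 0.07). With the replicate number as a block the adjusted p was 0.0441. In cortex it read 614, 603 and 505 in knockout, against 738, 565 and 758 in wild type, and wild-type replicate 2 lay among the knockouts (log2 difference -0.25, SE 0.12, adjusted p = 0.365).

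Vat1, a membrane protein first described in synaptic vesicles, had 1 tested probe set on each cortex chip and 3 in rest. On the B chip 1441930_x_at read 908, 916 and 1009 in knockout cortex, against 806, 800 and 694 in wild-type cortex. This was the B chip member whose genotypes did not overlap (log2 difference 0.30, SE 0.14, adjusted p = 0.664). The same probe set overlapped in rest (log2 difference 0.07), as did 1423726_at in cortex (0.09) and rest (0.02) and 1438165_x_at in rest (-0.05).

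Ifi35 codes for a protein induced by interferon, and its 3 probe sets gave 3 different pictures. The first, 1424617_at, was blank on all arrays that hold it. The second, 1459151_x_at, overlapped between genotypes on the B chip (log2 difference 0.18, SE 0.19) and in rest (log2 difference -0.02, SE 0.36). The third, 1445897_s_at, was listed at 78.2, 65.6 and 101 on the 3 knockout rest arrays and on no wild-type rest array. On the B chip it was listed at 178, 186 and 190 in the 3 knockout cortices and at 102 in 1 wild-type cortex. The groups thus differ in which arrays listed this probe set, and no test was made where a genotype had fewer than 2 values. Other genes induced by interferon are given beside it. Of 3 tested on the A chip all 3 were called higher in knockout, with summed signals of 1665 to 1902 in knockout and 918 to 1192 in wild type, and Irf7, Ifit1 and Ifit3 blank. In rest none of 3 was called, with sums of 2211 to 2633 in knockout and 1669 to 2224 in wild type. Their part in the Ifi35 listing was not tested.

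**Figure D2:**
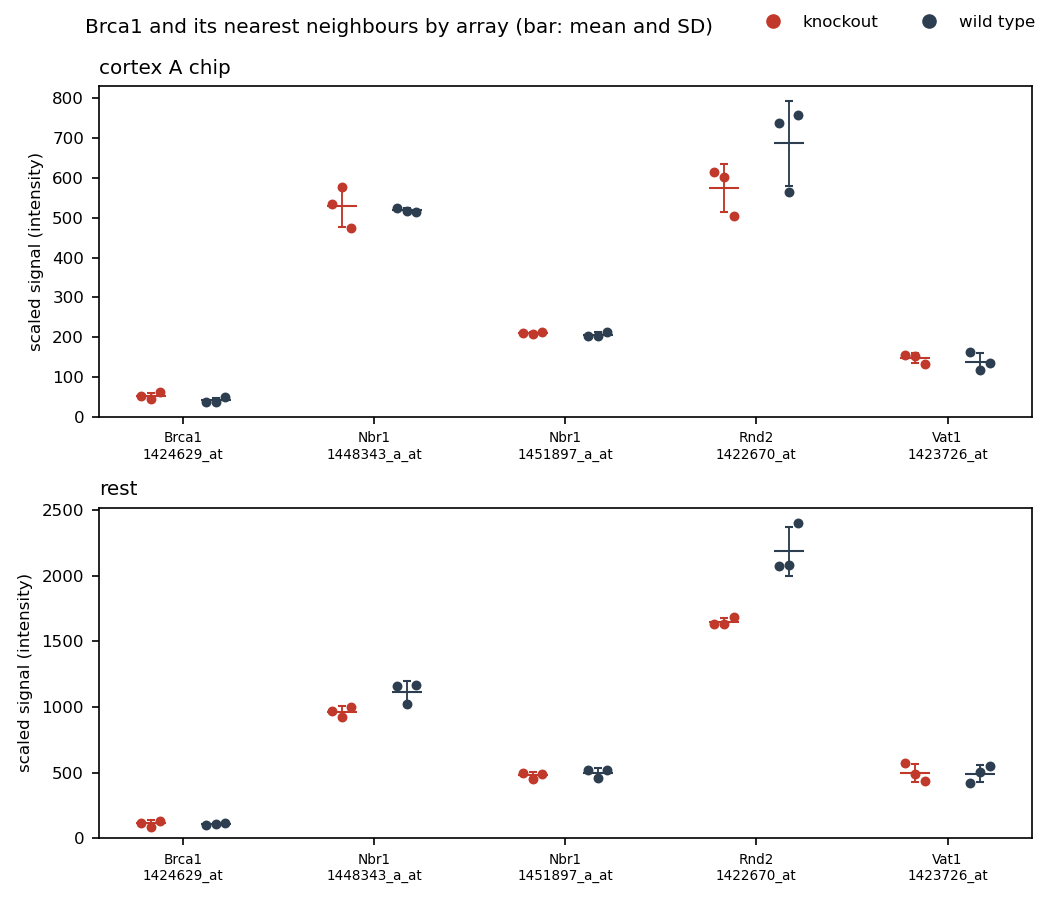
Scaled signal (linear intensity, vertical axes) of Brca1, Nbr1, Rnd2 and Vat1 probe sets by array, knockout left of wild type, with mean and SD, on the cortex A chip and in rest. Levels of different probe sets cannot be set against each other. Rnd2 in rest, at 1633 to 1683 in knockout and 2076 to 2404 in wild type, has the widest gap between groups among these probe sets.

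Cavin1 codes for a coat protein of caveolae, the small membrane pits of endothelial, smooth muscle and other non-neural cells. Its probe set 1424130_a_at read 216, 222 and 223 in the 3 knockout cortices, against 118 and 95.6 in 2 wild-type cortices, and it was blank on the third. The knockout values lie close together and above both wild-type values, and Cavin1 rose 1.93-fold (log2 difference 0.95, SE 0.14, adjusted p = 0.00448). The fit used 5 arrays. In rest it read 211, 303 and 279 in knockout, against 238, 172 and 211 in wild type, with overlap (log2 difference 0.33, SE 0.16, adjusted p = 0.535). In a bulk sample, more cells of a type and more RNA per cell cannot be told apart.

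Most tested markers of a pooled mural and meningeal list and of endothelial cells were also higher in knockout cortex. Of 10 tested markers of mural and meningeal cells 8 were called higher and none lower, with summed signals of 9806 to 11220 in knockout and 4218 to 4596 in wild type, and Acta2, the smooth muscle actin, blank on all arrays. Those not called were the mural cell genes Rgs5 (log2 difference 0.31, limma adjusted p = 0.0814) and Cspg4 (-0.35, adjusted p = 0.226). Of 7 tested endothelial markers 4 were called higher and none lower, with sums of 2379 to 2618 in knockout and 1588 to 1775 in wild type, and Pecam1 blank. In rest, 4 of 11 mural and meningeal markers were called higher, with sums of 13554 to 14276 in knockout and 6629 to 10724 in wild type, and none of 7 endothelial ones. The mural and meningeal ones called there were Col3a1, Dcn, Lum and Slc6a13, while Rgs5 and Cspg4 had log2 differences of -0.03 and -0.14. The part of these cells in the Cavin1 difference was not tested.

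Grn codes for progranulin, a secreted glycoprotein that is carried to lysosomes and is made by microglia and neurons. In cortex 1456567_x_at read 900, 931 and 917 in knockout, against 699, 648 and 699 in wild type, a rise of 1.34-fold (log2 difference 0.42, SE 0.07, adjusted p = 0.0103). The probe set 1438629_x_at read 1350, 1347 and 1340 in knockout, against 1000, 941 and 1084 in wild type (log2 difference 0.41, SE 0.07, adjusted p = 0.0111). The third, 1448148_at, read 319, 306 and 298 in knockout, against 248, 254 and 220 in wild type, without a call (log2 difference 0.34, SE 0.10, adjusted p = 0.114). All 3 probe sets of the gene thus had every knockout cortex above every wild-type cortex, at log2 differences between 0.34 and 0.42.

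In rest 1 of the 3 probe sets of Grn had genotypes that did not overlap, and inequality of the 3 was not called (limma diffSplice adjusted p = 0.707). With 1448148_at the knockouts read 474, 542 and 459, against 341, 381 and 419 in wild type, again all above (log2 difference 0.36, SE 0.11, adjusted p = 0.266). With 1438629_x_at the groups overlapped (log2 difference 0.16, adjusted p = 0.514), and with 1456567_x_at the knockouts read 1069, 922 and 1019, against 1120, 997 and 1078 in wild type (log2 difference -0.09, adjusted p = 0.779). The probe set with the largest Grn difference in cortex therefore had the lowest one in rest.

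Most tested markers of microglia and macrophages were, like Grn, higher in knockout cortex, as were the lists given above. On the A chip 6 of 7 tested markers were called higher in knockout and none lower, with sums of 3929 to 4077 in knockout and 2034 to 2300 in wild type, and none of the 8 blank on all arrays. The marker not called was Cx3cr1 (log2 difference 0.50, limma adjusted p = 0.285). In rest 0 of 6 were called, with sums of 3505 to 4255 in knockout and 2849 to 3437 in wild type. Cx3cr1 was not tested there, with 77.7 in knockout, 125 and 160 in wild type and the other arrays blank. The part of these cells in the Grn difference was not tested.

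With a term for the Y-linked listing, knockout replicate 3 is the only knockout that sets the difference from wild type. The log2 differences in cortex were then 0.97 for Cavin1 and 0.42 and 0.41 for Grn. Resting on 1 knockout array, they cannot decide whether the calls depend on sex, and calls from that fit are not given. Without knockout replicate 2 Cavin1 was called, and both Grn probe sets missed the threshold at log2 differences of 0.41 (adjusted p = 0.0516 and 0.051). Without wild-type replicate 1 Grn 1456567_x_at was called, and 1438629_x_at missed the threshold at a log2 difference of 0.41 (adjusted p = 0.0508). Without wild-type replicate 2 there were 5 calls, all higher in knockout except 1 of Becn1: both Grn probe sets, Lsm12 and 2 of Becn1 with opposite signs (log2 differences 0.78 and -0.83). Cavin1 could not be tested without either of these wild-type arrays, since it was then listed on 1 wild-type array only.

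**Figure D3:**
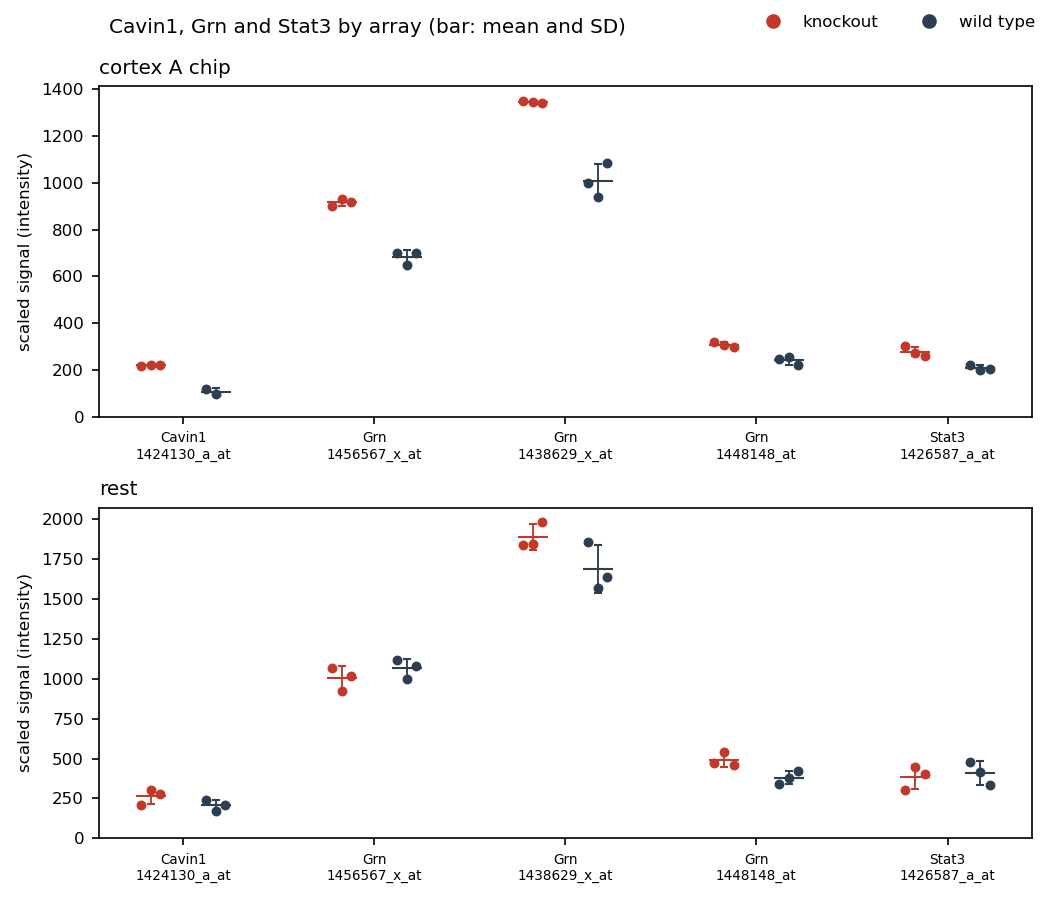
Scaled signal (linear intensity, vertical axes) of Cavin1, the 3 Grn probe sets and Stat3 1426587_a_at by array, knockout left of wild type, with mean and SD, on the cortex A chip (top) and in rest (bottom). Wild-type replicate 3 is blank for Cavin1 in cortex. Every knockout point is above every wild-type point in cortex, while of these 5 probe sets Grn 1448148_at alone shows this in rest.

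The other genes of autophagy, endosome and lysosome did not pass. Apart from Grn the group holds Nbr1, Becn1, Naglu, Atp6v0a1, Rab5c and Vps25, and its 13 tested probe sets on the A chip included 2 called, both of Grn. None of its 14 tested in rest was called, nor the 1 tested on the B chip. Becn1 codes for beclin 1, the scaffold of the lipid kinase that starts autophagosomes. Its probe sets had log2 differences of both signs. Inequality was not called over 4 probe sets in rest (limma diffSplice adjusted p = 0.828). On the A chip that test held only 1455880_s_at and 1460320_at, both higher in knockout (log2 differences 0.49 and 0.15, diffSplice adjusted p = 0.998). The lower 1435219_x_at (log2 difference -0.63) was blank on a knockout array and left out. The A chip test therefore cannot decide whether the opposite signs there differ. In rest 1430358_at read 63.6, 93.3 and 72.6 in knockout, against 48.4, 40.6 and 47.2 in wild type, without overlap (log2 difference 0.58, SE 0.17, adjusted p = 0.253). The same probe set on the cortex B chip read 254, 288 and 311 in knockout, against 277, 269 and 442 in wild type (log2 difference -0.17).

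In cortex on the A chip, Becn1 read 87.8 and 73.5 on 2 knockout arrays with 1435219_x_at, against 154, 97.7 and 155 in wild type (log2 difference -0.63, SE 0.20, adjusted p = 0.151). Yet 1455880_s_at read 261, 316 and 242 in knockout, against 183, 287 and 126 in wild type (log2 difference 0.49, SE 0.23, adjusted p = 0.324). A further Becn1 probe set, 1460320_at, had log2 differences of 0.15 in cortex and 0.05 in rest. Naglu, a lysosomal enzyme that degrades heparan sulfate, was dim in cortex, at 73.9, 76.7 and 77 in knockout and 60.5, 47.7 and 70.1 in wild type (log2 difference 0.30, adjusted p = 0.379). Atp6v0a1, a subunit of the proton pump of lysosomes and synaptic vesicles, ranged from -0.16 to 0.31 in log2 difference over 3 probe sets and both tables.

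Among the 9 signalling genes none was called in any table, over 8 tested probe sets on the A chip and 12 in rest. Stat3, a transcription factor activated by cytokine receptors, came closest in cortex. Its probe set 1426587_a_at read 301, 273 and 262 in knockout cortex, against 224, 198 and 206 in wild-type cortex, with all knockouts above (log2 difference 0.39, SE 0.10, adjusted p = 0.085). The other Stat3 probe set, 1460700_at, also had no overlap in cortex, with 305, 320 and 265 in knockout and 211, 246 and 259 in wild type (log2 difference 0.30, SE 0.12, adjusted p = 0.233). In rest 1426587_a_at overlapped (log2 difference -0.08). With 1460700_at the knockouts again lay above, at 524, 517 and 556 against 509, 511 and 487 in wild type, with a log2 difference of 0.08 (SE 0.08, adjusted p = 0.793). Among the signalling genes' 8 probe sets on the A chip all log2 differences were above 0, from 0.03 to 0.39, while in rest they ran from -0.39 to 0.13.

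Stat5b and Stat5a, which carry signals of growth hormone and cytokines, lie side by side and are close copies, so a probe of 1 may also bind the other's transcript. Stat5b 1422103_a_at read 171, 187 and 136 in knockout rest, against 233, 192 and 234 in wild-type rest, without overlap (log2 difference -0.39, SE 0.15, adjusted p = 0.394). In cortex it was listed on 2 arrays of each genotype (log2 difference 0.04). Stat5a was tested in rest only, with 57.9, 89.2 and 73.1 in knockout and 75.4, 70.6 and 76.2 in wild type (log2 difference -0.03). Fzd2, a Wnt receptor, had log2 differences of 0.31 and 0.20 in cortex and -0.16 and 0.01 in rest, all with overlap.

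None of the chromatin and transcription genes was called, over 11 tested probe sets of 7 genes on the A chip and 12 of 8 genes in rest. Etv4, a transcription factor of the ETS family that acts downstream of fibroblast growth factors, read 242, 230 and 272 with 1423232_at in knockout rest, against 149, 176 and 176 in wild-type rest. The groups do not overlap (log2 difference 0.53, SE 0.12, adjusted p = 0.155). In cortex the same probe set was listed on 1 array only, a knockout at 89.9.

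Ezh1, a histone methyltransferase of the Polycomb repressive complex, had its knockout values on opposite sides of wild type in the tables. With 1449023_a_at it read 91.1, 84.3 and 86.3 in knockout cortex, against 111, 119 and 116 in wild-type cortex (log2 difference -0.35, SE 0.12, adjusted p = 0.181). In rest it read 193, 207 and 204 in knockout, against 174, 187 and 155 in wild type (log2 difference 0.21, SE 0.12, adjusted p = 0.594). The groups do not overlap in either table, and the knockouts are the lower group in cortex and the higher in rest. A further Ezh1 probe set, 1418290_a_at, had log2 differences of -0.16 in cortex and 0.26 in rest. Hdac5, a histone deacetylase, is 1 of 2 members for which the same probe set was tested on both cortex chips, and 1415743_at gave -0.07 on the A chip, 0.10 on the B chip and 0.12 in rest. The other is Nmt1, which attaches myristate to proteins, with log2 differences of 0.19, 0.12 and 0.02 for 1415683_at.

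None of the genes of RNA processing and translation was called, over 12 tested probe sets on the A chip, 1 on the B chip and 13 in rest. Lsm12, an RNA-binding protein of the Lsm family, stood out by 1 replicate. With 1427998_at it read 306, 291 and 336 in knockout cortex, against 206, 319 and 215 in wild-type cortex (log2 difference 0.34, SE 0.15, adjusted p = 0.311). In rest the same probe set read 532, 516 and 556 in knockout, against 352, 518 and 332 in wild type (log2 difference 0.43, SE 0.15, adjusted p = 0.345). In both, wild-type replicate 2 lay among the knockouts and the other wild types lay below all of them.

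A second Lsm12 probe set, 1429509_at, read 1388, 1376 and 1062 in knockout cortex on the B chip, against 1061, 1182 and 872 in wild-type cortex (log2 difference 0.29, adjusted p = 0.745). In rest it read 600, 745 and 733 in knockout, against 471, 734 and 476 in wild type (log2 difference 0.32, adjusted p = 0.545). Wild-type replicate 2 was thus the highest of its group in all 4 series of Lsm12 values, over 2 probe sets and 3 array designs. Y-linked probe sets were listed on the same knockout numbers in all 3 tables, so same-numbered arrays may come from 1 animal. The 4 series are then not independent observations. Without that replicate Lsm12 1427998_at was called in cortex (log2 difference 0.53, adjusted p = 0.0454). Rpl27, a ribosomal protein, had log2 differences between -0.0005 and 0.13 over its 3 probe sets in cortex and rest. Gpatch8, a protein with a G-patch domain, read 199, 250 and 257 in knockout rest with 1424665_at, against 299, 309 and 263 in wild-type rest (log2 difference -0.29, SE 0.13, adjusted p = 0.474).

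**Figure D4:**
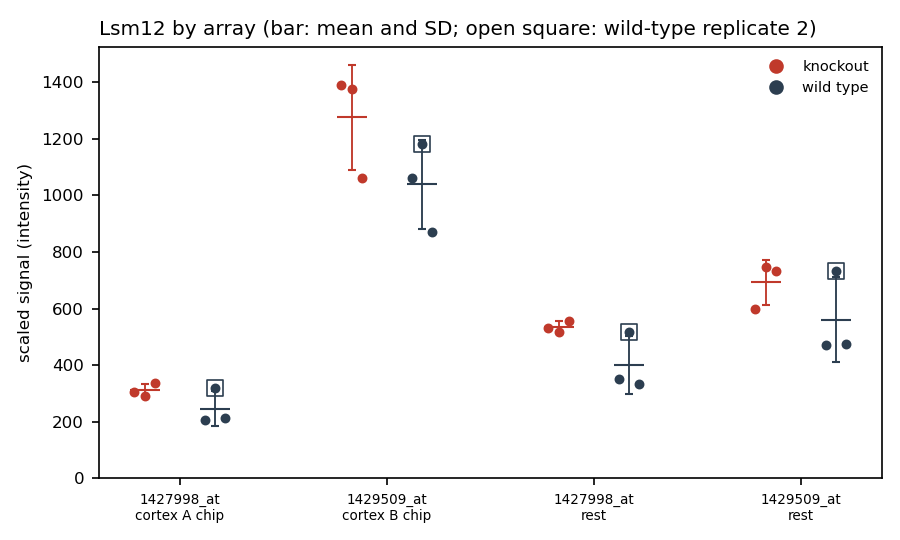
Scaled signal (linear intensity, vertical axis) of 2 Lsm12 probe sets by array, knockout left of wild type, with mean and SD, in the tables that test them (horizontal axis). Open squares mark wild-type replicate 2, which is the highest wild type in each of the 4 series at 319, 1182, 518 and 734, and lies within the knockout range of each.

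None of the genes of metabolism and protein modification was called, over 8 tested probe sets on the A chip, 5 on the B chip and 12 in rest. Acbd4, which binds acyl-CoA, had the largest log2 difference of all members in rest. Its probe set 1428271_at read 144, 117 and 117 in knockout rest, against 92.3, 78.9 and 61.1 in wild-type rest, without overlap (log2 difference 0.61, SE 0.17, adjusted p = 0.231). The second, 1449626_s_at, read 189, 178 and 171 in knockout, against 133, 150 and 122 in wild type, also without overlap (log2 difference 0.37, SE 0.13, adjusted p = 0.342). On the cortex B chip both overlapped, with log2 differences of 0.15 and 0.04. G6pc3, a glucose-6-phosphatase, read 424, 444 and 396 in knockout rest, against 292, 327 and 376 in wild-type rest (log2 difference 0.34, SE 0.11, adjusted p = 0.323), and had a log2 difference of 0.11 in cortex from 2 knockout and 3 wild-type arrays. Slc25a39, a mitochondrial carrier, had 3 tested probe sets on the A chip with log2 differences of 0.09 to 0.22, none called.

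Of the genes of membrane, junction and cytoskeleton, 1 of 11 tested probe sets was called on the A chip (Cavin1), 0 of 2 on the B chip and 0 of 16 in rest. Cntnap1, the axonal partner of the paranodal junctions next to myelin, read 117, 149 and 117 in knockout rest, against 161, 148 and 171 in wild-type rest (log2 difference -0.30, adjusted p = 0.511). Myelin markers were lower beside it: their summed signals in rest were 1125 to 7885 in knockout and 12980 to 13621 in wild type, none of 3 tested genes being called there by the probe set taken for each, and their part in the Cntnap1 value was not tested. Adam11, a neuronal membrane protein, gave log2 differences of -0.29 (2 arrays of each genotype) and -0.08 in cortex, and -0.05 and 0.11 in rest. Rundc3a, a neuronal effector of Rap2, read 818, 702 and 881 in knockout cortex with 1449246_at, against 968, 826 and 1086 in wild-type cortex (log2 difference -0.25, adjusted p = 0.307). The genotypes overlapped for this probe set and for 1436674_at, which had a log2 difference of -0.03.

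The 2 pairs of related genes in this group gave no call. Tubg1 and Tubg2 code for gamma-tubulins, which nucleate microtubules. Tubg1 read 145, 135 and 163 in knockout cortex, against 140, 168 and 152 in wild-type cortex, and 283, 254 and 284 in knockout rest, against 301, 319 and 329 in wild-type rest (log2 differences -0.05 and -0.20). Tubg2 had the lower knockout values in cortex, at 130, 128 and 132 against 174, 145 and 140 in wild type, and overlapped in rest (log2 differences -0.20 and 0.10). Each of the pair was thus apart in 1 tissue and overlapping in the other. Mpp2 and Mpp3, scaffolds of the MAGUK family, had log2 differences of -0.06 and -0.16 in cortex and -0.27 and -0.01 in rest, with adjusted p-values between 0.458 and 0.981.

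The remaining 4 genes, Ifi35 among them, gave no call. Psme3, an activator of the nuclear proteasome, read 306, 370 and 301 in knockout rest with 1418078_at, against 421, 371 and 449 in wild-type rest (log2 difference -0.33, SE 0.12, adjusted p = 0.343). Its log2 difference in cortex was -0.10. Tmem101, a transmembrane protein, read 252, 252 and 268 in knockout rest, against 191, 231 and 245 in wild-type rest (log2 difference 0.20, adjusted p = 0.62). Dnajc7, a co-chaperone of heat shock proteins, had log2 differences of -0.01 in cortex and -0.09 in rest.

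Probe sets of 1 gene read different stretches of its transcripts. Whether they reported the same difference was measured by the F test of limma's diffSplice, which compares the knockout differences of the probe sets of a gene, over genes with 2 or more probe sets listed on all 6 arrays of a table. On the A chip 0 of 17 member genes were called (lowest adjusted p = 0.998), against 0% of all 2350 genes. An unadjusted p under 0.05 was reached by 0 of the 17 and by 118 of the 2350. So few member genes cannot set their share apart from that of all genes. The B chip had no member gene with enough probe sets, and 0% of its 919 genes were called. In rest 0 of 22 member genes were called (lowest adjusted p = 0.707), against 0.0915% of all 4370. There, 276 of the 4370 and 1 of the 22 had an unadjusted p under 0.05. That 1 was Grn in rest, where the log2 differences of its probe sets spanned 0.44 (unadjusted p = 0.0214). Becn1 in rest had the widest span, at 0.71 over 4 probe sets (unadjusted p = 0.0572, adjusted p = 0.828).

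Whether a knockout difference was unequal between cortex and rest was tested as an interaction on the probe sets tested in both tables. The fit took all arrays as independent, although cortex and rest arrays of 1 number may come from the same animal. Its SEs and p-values leave out any such pairing. For the A chip and rest 0 of 67 member probe sets were called, against 0.0502% of 11959, and 8 (11.9%, against 10.5% of all) had an unadjusted p under 0.05. The lowest 3 were Grn 1456567_x_at, Ezh1 1449023_a_at and Cavin1. The log2 difference in rest minus that in cortex was -0.50 for Grn (SE 0.10, adjusted p = 0.107), 0.56 for Ezh1 (SE 0.15, adjusted p = 0.2) and -0.62 for Cavin1 (SE 0.22, adjusted p = 0.326). So the calls of Grn and Cavin1 in cortex and their absence in rest were not shown to differ. For the B chip and rest 0 of 11 were called, against 0% of 6563, and 1 (9.09%, against 7.94% of all) had an unadjusted p under 0.05. Its lowest 3 were Becn1 1430358_at, with a difference of 0.75 (SE 0.28, adjusted p = 0.517), and both probe sets of Acbd4.

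**Figure D5:**
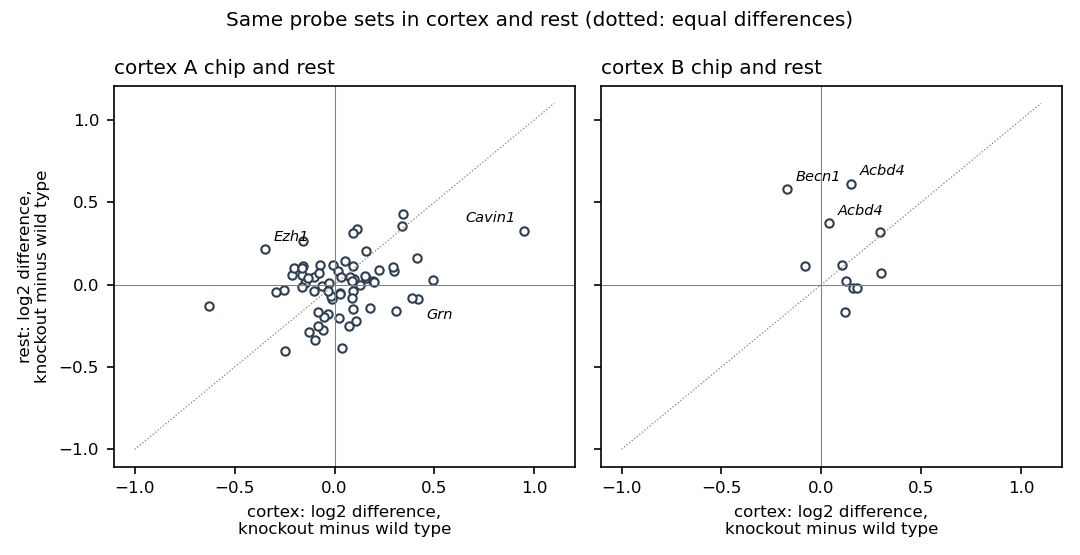
Log2 differences, knockout minus wild type, of the member probe sets tested in both tables: cortex on the horizontal axes, rest on the vertical axes, for the A chip (left, 67 probe sets) and the B chip (right, 11). The dotted line marks equal differences, and names mark the 3 lowest interaction p-values of each panel. Cavin1 lies at 0.95 in cortex and 0.33 in rest.

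Genes of the region outside the list also held calls. Within 1 Mb of Brca1 on the A chip, 3 of the 8 tested probe sets of other genes were called (37.5%) and 3 of 56 of the members (5.36%). Those of other genes were Ramp2, a partner of the adrenomedullin receptor in vessels, at 577, 583 and 604 in knockout cortex and 430, 377 and 397 in wild-type cortex (log2 difference 0.53, adjusted p = 0.00571), and 2 of Cnp, a myelin enzyme, which fell (log2 differences -1.003 and -1.07). From 1 to 2 Mb, 2 of 14 probe sets of other genes were called, Gfap, the astrocyte filament, higher (log2 difference 0.89) and C1ql1 lower (-0.66), and 0 of 11 of the members. From 2 to 5 Mb 9 of 80 were called (11.2%), 5 of them of Igfbp4, and from 5 to 10 Mb 2 of 73 (2.74%), both of Col1a1, a collagen. Beyond 10 Mb on the chromosome 1.86% were called, and 3.07% on all other chromosomes. With members and other genes together, 9.38% were called within 1 Mb and 8% from 1 to 2 Mb. At an unadjusted limma p under 0.05 the shares were 25% within 1 Mb and 20% from 1 to 2 Mb. They were 26.2% from 2 to 5 Mb and 9.59% from 5 to 10 Mb, against 15.9% on all other chromosomes. In rest the only calls within 10 Mb were 1 probe set of Cnp and 1 of Igfbp4, and on the B chip there were none.

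The direction of these calls was mixed. Of the 19 probe sets called within 10 Mb on the A chip, members included, those of Cavin1, Grn, Ramp2, Gfap, Igfbp4, Smarcd2 and Col1a1 were higher and those of Cnp, C1ql1, Mapt and Ppp1r1b lower in knockout. Several probe sets stand for 1 gene, so these counts are not counts of independent genes.

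Blank cells were counted in the same way. On all 6 arrays of a table, 20.9% of the members were blank on the A chip, 22.7% on the B chip and 15.3% in rest, against 36.2%, 50% and 39.9% of all probe sets. Besides Ifi35 1445897_s_at in rest, 4 member probe sets were listed on at least 2 arrays of 1 genotype and on none of the other. Dusp3 1425608_at, of a phosphatase of the MAP kinase pathway, was listed on 2 knockout cortices, Gjc1 1447787_x_at, of a gap junction connexin, on 2 knockout cortices and Ezh1 1429629_at on 2 knockout rest arrays. Vps25 1421050_at, of a subunit of the endosomal sorting complex, was listed on 2 wild-type cortices at 14.3 and 22.9. In the wider tables, 0.972% to 1.64% of all probe sets were listed only in knockout and 0.471% to 0.826% only in wild type by the same rule.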

How the data were processed

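Total RNA (TRIZOL) of mouse brain was measured on Affymetrix arrays. The deposited numbers are linear intensity values per probe set, which the authors obtained with MAS5, per the submitters' processing notes; no version or setting is given in the sources used here. Many cells are blank, and the labels do not say why. The number of arrays limits the precision.

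Members were found through the array annotation with symbols updated from RefSeq (GRCm38.p6), by symbol or former symbol. Probe sets with several genes, 2 of them annotated to both Ramp2 and Vps25, were not members. The members and lists were chosen with earlier results of these data known. Control probe sets were left out, and arrays were scaled to equal 2%-trimmed means, taken over the probe sets with a value on all 6 arrays of a table. Probe sets listed on at least 2 arrays of each genotype were tested within their table on log2(signal + 16) by limma 3.58.1 under R 4.3.3, using lmFit and eBayes with an intensity trend and Benjamini-Hochberg adjustment over the table. Marker lists were read from 1 probe set a gene. The scripts were tested on simulated data. No 2 arrays of a table shared more than 0.168% of equal values.

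Named were Brca1, the 4 nearest genes, called members, the lowest 3 of each interaction and the 2 lowest p of each role group. Other members with values, among them Naglu, Fzd2, Cntnap1, Adam11, Rundc3a, Slc25a39 and Rpl27, were chosen after their values were seen, as were the called genes outside the list. Alternatives were other scalings, offsets of 1 and 64, blanks set to a low signal, stricter filters, other variance models, a replicate block, a sex-marker term, single arrays left out and an adjusted p of 0.10.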

Additional observations from a re-analysis of the deposited data

Results flagged for a closer look

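In 4 cases a member probe set carried signal on knockout arrays while every wild-type array of the table was blank, which kept them out of the comparisons. Dusp3 1425608_at had a mean scaled signal of 66.6 over 2 knockout arrays of the cortex A chip. Gjc1 1447787_x_at had 146 over 2 knockout arrays of the cortex B chip, yet in rest it was listed on 2 arrays of each genotype, with overlap. Ezh1 1429629_at had 47.7 over 2 knockout arrays in rest, and on the B chip it was listed on 3 knockout arrays and 1 wild-type array. Ifi35 1445897_s_at had 81.6 over the 3 knockout arrays in rest. These are values with no test and no fold, since no level is known for the blank arrays.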

How the results depend on the processing

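On the cortex A chip the count of members called stayed within 1.5 times of 3 in the other scalings, offsets, filters and variance models. It was 1 to 5 with single arrays left out. The count is not given for the sex-marker term, whose knockout difference rests on 1 knockout array. In rest the count was 1 with the replicate block (Rnd2) and 1 at an adjusted p of 0.10, against 0, and on the B chip it was 0 throughout. Over all probe sets, the alternatives other than the sex-marker term called 185 to 607 on the A chip. On the B chip the count over all probe sets was 1 with a low signal in place of blanks, against 22. It moved by more than 1.5 times in 8 of 19 alternatives on the B chip and in 9 of 19 in rest. For unequal probe sets, and for unequal differences between cortex and rest, fewer alternatives were run. These were both offsets, no scaling, quantile normalization, the replicate block and single arrays left out. None of them called a member at an adjusted p under 0.05. The lowest adjusted p of the limma interaction among them was 0.0892, for the A chip and rest. For Grn 1438629_x_at, an adjusted p of 0.0589 without the intensity trend ended the call.

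The deviations of same-numbered arrays had correlations of -0.0088 to 0.019 (A chip), 0.072 to 0.16 (B chip) and 0.023 to 0.25 (rest), with 1, 6 and 3 of 6 arrays closest to their own number. The B chip arrays thus went with their numbers, and the A chip arrays did not. The labels state no pairing, and the main fits did not take the numbers as pairs. The replicate block moved the count over all probe sets to 12 on the B chip, against 22, and to 142 in rest, against 67.

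Some uncalled log2 differences near 0 changed sign, in the sex-marker fit with knockout replicate 3 as the only knockout that sets the difference. With the sex-marker term they were -0.0407 for Vat1 1423726_at, -0.121 for Nbr1 1448343_a_at and 0.143 for Psme3 1418078_at in cortex, and in rest -0.169 for Vat1 1423726_at, -0.124 for Vat1 1441930_x_at, 0.0444 for Ifi35 1459151_x_at and 0.00682 for Stat3 1426587_a_at. Ifi35 was 0.0307 in rest with quantile normalization and 0.0267 with array weights. In cortex Stat5b 1422103_a_at was -0.065 with quantile normalization and -0.000468 with a low signal in place of blanks, and G6pc3 1428245_at was -0.4996 with that low signal. With single arrays left out, the cortex values ran from -0.0083 to 0.194 for Vat1 1423726_at, -0.0388 to 0.0961 for Nbr1, -0.216 to 0.032 for Psme3 and -0.291 to 0.0505 for Becn1 1430358_at (B chip). The rest values ran from -0.404 to 0.281 for Ifi35, -0.0842 to 0.113 for Vat1 1423726_at, -0.22 to 0.0746 for Stat3 and -0.185 to 0.124 for Vat1 1438165_x_at. The cause of these changes was not tested. Signals of 2 or 3 arrays and blank cells limit what dim probe sets can show.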
